A study of Homo sapiens with 12 samples.

Results

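The 10 genes described here carry out or hold back apoptosis: the death receptors TNFRSF10A and TNFRSF10B, the anti-apoptotic BCL2L1 and MCL1, the BH3-only genes PMAIP1, BCL2L11, BID and BIK, the effector BAK1, and the caspase inhibitor XIAP. They were chosen by name, with earlier results of these data known, and matched by symbol to 10 of the 60675 gene IDs of the count table. Of these, 9 were among the 15374 genes with enough counts for a test, and BIK was not. Their RNA was measured in HT29, a line derived from a human colorectal adenocarcinoma. Cells received vehicle (PBS with 2% DMSO) or a water extract of Aconitum carmichaeli Debeaux (ACD), an aconite used as a herbal medicine, and were collected after 24 h. The extract was given at a low (20 µg/mL), medium (100 µg/mL) or high dose (500 µg/mL), and each of the 4 groups had 3 libraries. Titles and treatment fields name ACD, but a longer treatment note describes an extract of another herb, Poria cocos, so the grouping rests on the titles.

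As background, 2 routes lead to apoptosis. In the extrinsic route, a ligand such as TRAIL clusters death receptors at the cell surface, which recruit FADD and caspase-8. In the intrinsic route, BH3-only proteins occupy the anti-apoptotic BCL2 proteins and free or activate BAK and BAX, which open the outer mitochondrial membrane, and cytochrome c then starts the caspases that XIAP can block. BID joins both routes, since caspase-8 cleaves it. In many colorectal cancer cells, BCL2L1 (which encodes BCL-XL) is the main survival protein. RNA levels show neither protein amounts, cleavage nor cell death. The study also ran a cell viability assay when it set its doses. The paper reports that no cytotoxicity was seen at the high dose, in a sentence that names no cell line. The readings of that assay were not analysed here.

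The labelled cell line was checked by markers. The epithelial genes EPCAM, CDH1, KRT8, KRT18, KRT19, KRT20, VIL1 and LGALS4 lay at 148 CPM (the share of a library's counts in the usual CPM unit, with library sizes scaled by TMM) or more in every library, whereas CDX2 lay between 4.61 and 6.75 CPM and CDX1 between 0.923 and 1.54 CPM. Of the fibroblast, leukocyte and endothelial markers reported here, COL1A2 was at 0 in all 12 libraries and COL3A1, DCN, PTPRC, CD3E, VWF and CDH5 were at 0.123 CPM or less. COL1A1, LUM, CD14 and PECAM1 lay between 0.354 and 4.39 CPM, and LYZ reached 1886 CPM. Libraries held 15941255 to 33866644 expected counts. High-dose replicate 2 stood apart: the SD of its log2 differences from the other libraries of its group was 0.502, against 0.102 to 0.293 for the other 11. The mitochondrial share of counts was 14.04% to 16.6% at the high dose and 8.74% to 10.1% in vehicle, and the mitochondrial ribosomal RNA MT-RNR1 alone took 2.73% to 2.89% against 0.127% to 0.138%. The part of these shifts in the results below was not tested. The labels do not say that the libraries came from separate cultures, so p-values measure only the spread between these libraries.

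PMAIP1 was the only tested gene of the set that edgeR called as changed, and it rose at the high dose alone among the 3 doses set against vehicle. It encodes NOXA, a BH3-only protein that binds MCL1 and is known to be induced by ATF4 under stress. It lies on chromosome 18, from 59899996 to 59904305 on the plus strand (GRCh38). Because of its change, the 250 bases before its start are shown from the RefSeq promoter table (GRCh38.p14), in the direction of transcription, at chr18:59899746-59899995. Capitals mark matches to TGACG or its complement CGTCA, which is the core of the cyclic AMP response element (CRE) bound by ATF and CREB proteins, and to the GC box GGGCGG or its complement CCGCCC, bound by SP1.

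PMAIP1: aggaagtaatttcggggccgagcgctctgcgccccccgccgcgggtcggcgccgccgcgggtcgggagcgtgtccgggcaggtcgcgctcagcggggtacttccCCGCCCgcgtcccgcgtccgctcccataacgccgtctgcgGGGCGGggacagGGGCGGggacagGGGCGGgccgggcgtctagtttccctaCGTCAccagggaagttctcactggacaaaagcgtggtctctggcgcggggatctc

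The CRE core begins 55 bases before the start, and the 4 GC boxes begin 146, 106, 94 and 82 bases before it. These letters are a description and not evidence of binding.

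PMAIP1 was at 4.46, 4.30 and 4.66 CPM in vehicle, 4.77, 3.95 and 4.52 CPM at the low dose, 4.77, 5.48 and 3.89 CPM at the medium dose, and 5.94, 11.3 and 7.66 CPM at the high dose. All 3 high-dose libraries lay above every library of the other 9, whereas the low and medium libraries overlapped those of vehicle. At the high dose PMAIP1 rose 1.82-fold (log2 fold change 0.86, SE 0.20, 95% interval 0.43 to 1.3045, edgeR adjusted p = 0.0264). The values at the low dose (−0.02, SE 0.21, adjusted p = 0.993) and the medium dose (0.08, SE 0.21, adjusted p = 0.911) were close to 0, with 95% intervals of −0.47 to 0.43 and −0.37 to 0.53. High dose exceeded low dose by 0.88 (SE 0.20, adjusted p = 0.0345), a comparison in which the vehicle libraries enter through the shared spread and not through their level. In RNA from a whole culture, a higher level in every cell and a larger share of cells with a high level cannot be told apart.

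The highest PMAIP1 value came from high-dose replicate 2, the library that stood apart. Without it, the increase was smaller but still passed the test (log2 fold change 0.62, adjusted p = 0.0071). Behind these levels were 81 to 249 expected counts per library, fewer than for any other tested gene of the set in each library except high-dose replicate 2, where TNFRSF10A had fewer. The adjusted p missed 0.05 in a fit of the vehicle and high-dose libraries alone (0.165), and also without vehicle replicate 1 (0.0817), 2 (0.111) or 3 (0.0741) or without high-dose replicate 3 (0.0564), with log2 fold changes of 0.85 to 0.92 in these fits. The increase against the low dose lost its call in 10 of 19 alternatives, among them the fit with a replicate block (adjusted p = 0.0653).

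**Figure D1:**
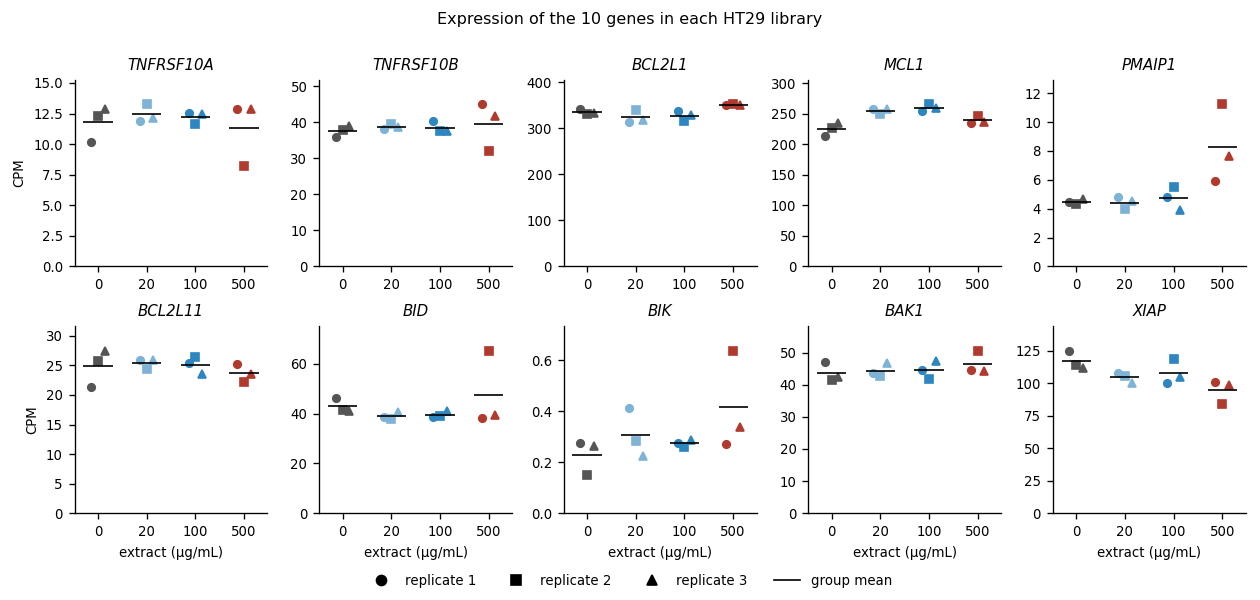
Level of each of the 10 genes in CPM (vertical axis, linear, from 0) in every library against the extract dose in µg/mL (horizontal axis, 0 is vehicle). Symbols stand for the replicate number and bars for the group mean of 3 libraries. PMAIP1 lay between 5.94 and 11.3 CPM at 500 µg/mL and at 5.48 CPM or less in the other libraries.

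Of the 9 tested genes, 1 was called at the high dose (adjusted p under 0.05), where 5.77% of all 15374 genes tested were called (2.82% higher and 2.95% lower). None of the 9 was called at the medium dose, where 1.01% of all genes were called, or at the low dose, where 0.124% were. DESeq2 called 2, 1 and 0 of them at the high, medium and low dose, and 8.25%, 1.99% and 0.546% of all genes to which it gave an adjusted p. At an unadjusted p under 0.05 there were 2, 1 and 1 in edgeR, where 20.1%, 11.7% and 7.95% of all genes lay under it. High against low dose called 1 of 9, against 2.98% of all genes. The 9 genes had a median log2 fold change of 0.08 at the high dose, and all genes tested had 0.0052. Each 95% interval is for a single gene and reflects the spread between these libraries. The intervals are not a joint limit for the set. At the high dose, 8 of 9 intervals lay inside a 1.5-fold change in either direction, all but that of PMAIP1, and at the medium and low doses all 9 did.

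**Figure D2:**
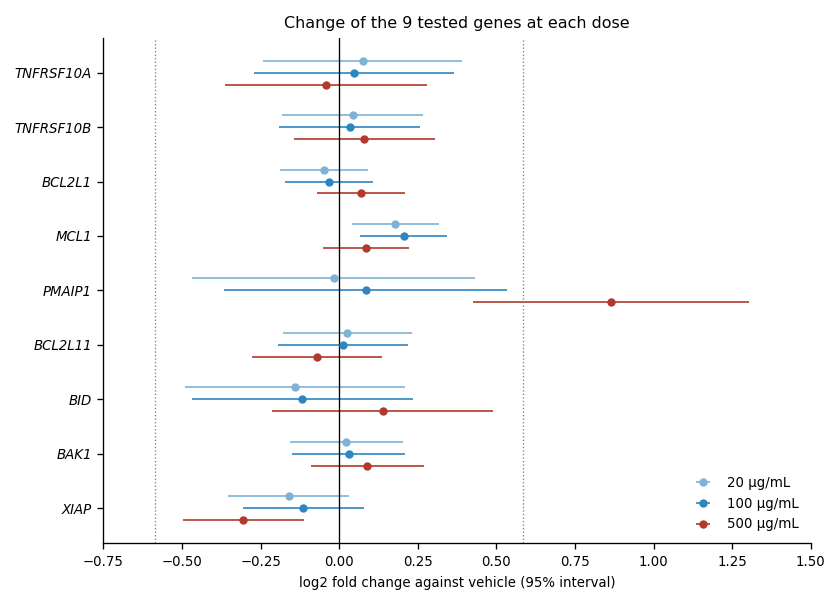
Log2 fold change against vehicle (horizontal axis) with its 95% interval for the 9 tested genes at 20, 100 and 500 µg/mL, from the fit over 12 libraries. Dotted lines mark a 1.5-fold change. The interval of PMAIP1 at 500 µg/mL runs from 0.43 to 1.3045, and the other intervals stay between the dotted lines.

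The death receptors TNFRSF10A (DR4) and TNFRSF10B (DR5) bind TRAIL and lie on the minus strand of chromosome 8, TNFRSF10B from 23020133 to 23069031 and TNFRSF10A from 23190452 to 23225102. TNFRSF10A was at 10.2, 12.3 and 12.9 CPM in vehicle, 11.9, 13.3 and 12.1 CPM at the low dose, 12.5, 11.7 and 12.4 CPM at the medium dose, and 12.9, 8.21 and 12.9 CPM at the high dose. The groups overlapped, and the lowest value was that of high-dose replicate 2. The high-dose log2 fold change was −0.04 (SE 0.15, adjusted p = 0.924), and 0.12 (adjusted p = 0.421) without that library.

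TNFRSF10B, a known target of DDIT3, was at 35.9, 38.0 and 38.9 CPM in vehicle, 38.2, 39.4 and 38.6 CPM at the low dose, 40.4, 37.6 and 37.5 CPM at the medium dose, and 45.1, 32.1 and 41.6 CPM at the high dose. High-dose replicates 1 and 3 were the highest of the 12 libraries and replicate 2 the lowest. With all libraries the log2 fold change was 0.08 (SE 0.10, 95% interval −0.15 to 0.30, adjusted p = 0.734). Without high-dose replicate 2 it was 0.20 and passed the test (adjusted p = 0.0389), as it did when limma weighted each library by its quality (0.17, adjusted p = 0.0148). Whether TNFRSF10B rose therefore turned on 1 library. RHOBTB2 overlaps TNFRSF10B on the opposite strand, and although the library kit keeps strand, the strand setting of the counting is not named in the sources used here, so reads of such pairs may be mixed.

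The ratio of the receptors moved little, with 353, 309 and 302 TNFRSF10B counts per 100 TNFRSF10A counts in vehicle and 350, 390 and 324 at the high dose. The groups overlapped (exact permutation test, two-sided p = 0.3).

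The anti-apoptotic genes were the most abundant of the set. BCL2L1 (chromosome 20, 31664452 to 31723989) was at 341, 330 and 333 CPM in vehicle, 313, 340 and 317 CPM at the low dose, 337, 316 and 329 CPM at the medium dose, and 351, 352 and 349 CPM at the high dose. Every high-dose library lay above every vehicle library, but the step was small (log2 fold change 0.07, SE 0.06, adjusted p = 0.613). Its interval of −0.07 to 0.21 was among the narrowest of the set.

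MCL1 (chromosome 1, 150560895 to 150579738) encodes a short-lived survival protein that NOXA marks for degradation. It was at 215, 227 and 236 CPM in vehicle, 258, 250 and 259 CPM at the low dose, 255, 266 and 259 CPM at the medium dose, and 235, 247 and 236 CPM at the high dose. All low-dose and medium-dose libraries lay above those of vehicle, and the high-dose libraries overlapped them. The log2 fold changes were 0.18 at the low dose (SE 0.06, unadjusted p = 0.0148, adjusted p = 0.468), 0.20 at the medium dose (SE 0.06, unadjusted p = 0.00690, adjusted p = 0.205) and 0.09 at the high dose (SE 0.06, adjusted p = 0.50). The medium-dose value passed the test in DESeq2 (adjusted p = 0.00302), in limma with quality weights (adjusted p = 0.00130) and without high-dose replicate 2 (adjusted p = 0.0198), and not in the fit of all libraries. The low-dose value passed in limma with quality weights alone among the 19 alternatives (0.16, adjusted p = 0.0181). ADAMTSL4 overlaps MCL1 on the opposite strand, with the same limit as above. Opposite-strand genes also overlap TNFRSF10A, BCL2L1, BCL2L11, BAK1 and XIAP, with that limit too. Same-strand genes overlap MCL1 (among them ADAMTSL4-AS1), BID and XIAP, and strand does not separate these.

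Among the other BH3-only genes, BCL2L11 (chromosome 2, 111119378 to 111168444) encodes BIM, a strong activator of BAX and BAK. It was at 21.4, 25.7 and 27.5 CPM in vehicle and 25.3, 22.2 and 23.5 CPM at the high dose, with the low and medium doses between 23.5 and 26.4 CPM. The groups overlapped at each dose, and the high-dose log2 fold change was −0.07 (SE 0.10, adjusted p = 0.749).

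BID (chromosome 22, 17734138 to 17774770) was at 46.4, 41.4 and 41.2 CPM in vehicle, 38.6, 37.8 and 40.5 CPM at the low dose, 38.6, 39.2 and 41.0 CPM at the medium dose, and 38.1, 65.2 and 39.5 CPM at the high dose. High-dose replicate 2 was far above the other 11 libraries, while the low-dose and medium-dose libraries all lay below vehicle. The log2 fold change at the high dose was 0.14 (SE 0.16, adjusted p = 0.702) with that library and −0.14 without it, neither of them called. BIK (chromosome 22, 43110750 to 43129712) stayed between 5 and 12 expected counts (0.152 to 0.637 CPM) in each library, too few for a test, and its groups overlapped.

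The effector BAK1 (chromosome 6, 33572547 to 33580293) encodes a protein that forms the pore in the outer mitochondrial membrane. It was at 47.2, 41.4 and 42.4 CPM in vehicle, 43.5, 42.6 and 46.9 CPM at the low dose, 44.4, 41.9 and 47.3 CPM at the medium dose, and 44.7, 50.5 and 44.3 CPM at the high dose. The groups overlapped throughout, and the high-dose log2 fold change of 0.09 had an interval of −0.09 to 0.27 (SE 0.08, adjusted p = 0.611).

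XIAP (chromosome X, 123859712 to 123913972), whose protein binds and blocks caspase-3, caspase-7 and caspase-9, was the member with the lowest fold change. It was at 125, 114 and 112 CPM in vehicle, 108, 106 and 100 CPM at the low dose, 100, 119 and 105 CPM at the medium dose, and 101, 84.3 and 98.7 CPM at the high dose. All high-dose and low-dose libraries lay below those of vehicle, and the medium-dose libraries overlapped them. The high-dose log2 fold change of −0.30 (SE 0.09, 95% interval −0.50 to −0.11, unadjusted p = 0.00494) missed the threshold after adjustment (adjusted p = 0.0690). It passed in DESeq2 (adjusted p = 0.0244), in limma with quality weights (−0.20, adjusted p = 0.00451) and without high-dose replicate 2 (−0.23, adjusted p = 0.0337).

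Levels can be set between genes only per transcript length, here as CPM per kb of the canonical GENCODE transcript, a scale that shifts if a gene uses another isoform. In vehicle BCL2L1 led with 130.0 ± 2.2 CPM per kb (SD, n = 3), followed by MCL1 with 57.1 ± 2.7. BAK1 (20.1 ± 1.4) and BID (19.8 ± 1.4) were close to each other. XIAP (13.7 ± 0.83) and TNFRSF10B (9.40 ± 0.38) came next, and BCL2L11 (4.87 ± 0.61) and TNFRSF10A (4.38 ± 0.53) were again close. The same 3 libraries gave all these values, so the SDs do not test a difference between genes. PMAIP1 was at 2.36 ± 0.093 CPM per kb and BIK at 0.242 ± 0.072. At the high dose the mean of PMAIP1 was 4.36 CPM per kb, still far below MCL1 at 60.7.

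The ratio of PMAIP1 to MCL1, which encode partners, was computed after their values were seen. For every 100 MCL1 counts there were 2.08, 1.90 and 1.97 PMAIP1 counts in vehicle. At the low dose there were 1.85, 1.58 and 1.75, the medium dose gave 1.87, 2.06 and 1.50, and the high dose gave 2.52, 4.56 and 3.24. The high-dose libraries lay above all others. The log2 difference from vehicle was 0.75, with an exact permutation p of 0.1 (two-sided), the smallest that 3 against 3 libraries allow. BCL2L11 per 100 MCL1 counts overlapped between vehicle (9.98, 11.3 and 11.6) and the high dose (10.7, 9.0 and 9.94), with an exact permutation p of 0.2.

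A list of 47 other cell death genes, of which 40 were tested, was set beside these members. It was chosen with earlier results of these data known, so its counts do not measure an excess over the shares of all genes. At the high dose 5 rose and 2 fell, and 33 were not called, where 5.77% of all genes were called. At the medium dose 2 rose and 1 fell, where 1.01% of all genes were called. At the low dose edgeR called 0 (0.124% of all genes), DESeq2 called 1 (0.546% of all genes) and 7 had an unadjusted p under 0.05 (7.95% of all genes). DESeq2 called 9 at the high dose (8.25% of all genes) and 4 at the medium dose (1.99%). In edgeR, 13 had an unadjusted p under 0.05 at the high dose (20.1% of all genes) and 10 at the medium dose (11.7%). The list's median log2 fold change at the high dose was 0.10, beside 0.0052 over all genes tested.

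**Figure D3:**
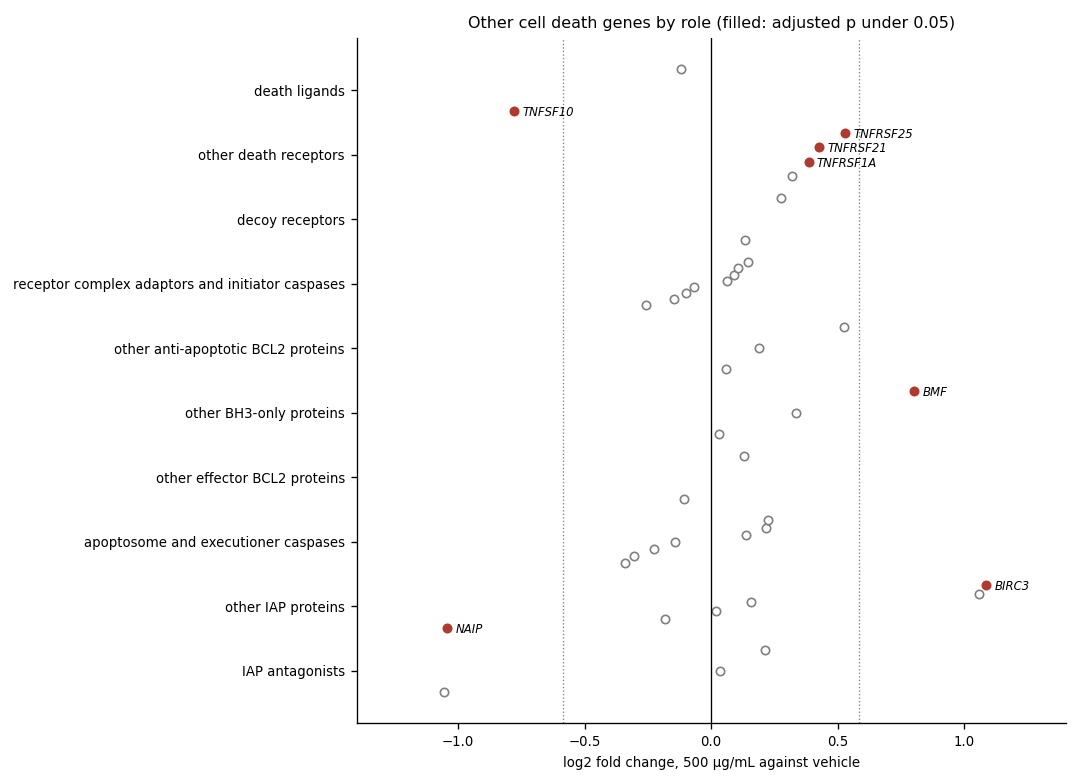
Log2 fold change at 500 µg/mL against vehicle (horizontal axis) of the 40 tested genes of the list, 1 point per gene, in rows by role (vertical offsets within a row only separate the points). Filled points had an adjusted p under 0.05, and dotted lines mark a 1.5-fold change. No point in the rows of the adaptors and initiator caspases or of the apoptosome and executioner caspases is filled.

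Of the 4 other death receptors, 3 were called higher at the high dose, where 2.82% of all genes were called higher. TNFRSF1A, the TNF receptor, was at 61.8, 63.1 and 63.2 CPM in vehicle and 88.3, 72.1 and 84.8 CPM at the high dose (log2 fold change 0.38, SE 0.08, adjusted p = 0.0122). TNFRSF25 (DR3) was at 4.68, 4.79 and 3.78 CPM in vehicle and 6.80, 6.30 and 6.09 CPM at the high dose (0.53, SE 0.11, adjusted p = 0.0137). TNFRSF21 (DR6), named after its values were seen, was at 254, 263 and 273 CPM in vehicle and 396, 277 and 386 CPM at the high dose. For these 3 genes every library at each dose lay above every vehicle library, although none was called at the low or medium dose. The share of all genes with such a separation is not given here. The call of TNFRSF21 (0.43, SE 0.11, adjusted p = 0.0462) held in 5 of 19 alternatives, and its log2 fold change without high-dose replicate 2 was 0.57. That of TNFRSF1A was lost without high-dose replicate 3 (adjusted p = 0.0514) and that of TNFRSF25 without high-dose replicate 1 (adjusted p = 0.0554). Whether these receptors changed more than TNFRSF10A and TNFRSF10B was not tested.

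TNFSF10 encodes TRAIL, the ligand of TNFRSF10A and TNFRSF10B. It was at 7.38, 7.94 and 7.82 CPM in vehicle, 6.70, 7.19 and 7.34 CPM at the low dose, 5.56, 6.59 and 5.16 CPM at the medium dose, and 4.23, 5.52 and 4.03 CPM at the high dose. It fell at the high dose (log2 fold change −0.78, SE 0.13, adjusted p = 0.00391), where every library lay below vehicle, and the medium-dose value of −0.42 was not called (adjusted p = 0.195). TNFSF15 gave −0.12 (adjusted p = 0.578), and FASLG, TNF and LTA had too few counts for a test. The decoy receptors TNFRSF10D (0.27, adjusted p = 0.172) and TNFRSF11B (0.13, adjusted p = 0.898) were not called.

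At the high dose edgeR and DESeq2 called 0 of the 8 adaptors and initiator caspases of the receptor complex, and 0 had an unadjusted p under 0.05, with log2 fold changes between −0.26 and 0.15. Over all genes, edgeR called 5.77% at that dose, and 20.1% had an unadjusted p under 0.05. DESeq2 called 8.25% of the genes to which it gave an adjusted p. The smallest p values there belonged to TRADD (−0.26, adjusted p = 0.254), the adaptor of TNFRSF1A, and CFLAR (−0.15, adjusted p = 0.289), the inhibitor of caspase-8. Of the 7 genes grouped here as apoptosome and other caspase genes, edgeR called 0, while 2 had an unadjusted p under 0.05 and DESeq2 called 2. These were CASP6 (−0.34, edgeR adjusted p = 0.0538), an executioner caspase, and CASP2 (−0.30, edgeR adjusted p = 0.0751). The medium dose gave −0.42 for CASP6 (edgeR adjusted p = 0.0569) and −0.14 for CASP2 (edgeR adjusted p = 0.597).

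In the BCL2 family outside the set, BMF was the only gene called. BMF is a BH3-only gene whose protein is released from the cytoskeleton. It was at 4.13, 5.06 and 5.32 CPM in vehicle, 8.04, 7.15 and 7.88 CPM at the low dose, 9.04, 10.6 and 10.9 CPM at the medium dose, and 9.37, 7.15 and 8.73 CPM at the high dose. At each dose all libraries lay above vehicle, and the level was highest at the medium dose. BMF rose at the medium dose (log2 fold change 1.06, SE 0.13, adjusted p = 0.00131) and the high dose (0.80, SE 0.13, adjusted p = 0.00323), while the low-dose value of 0.66 was not called (adjusted p = 0.0880). Unlike PMAIP1, BMF did not differ detectably between high and low dose (0.14, 95% interval −0.13 to 0.41, adjusted p = 0.592). BBC3 (0.34, adjusted p = 0.121), BCL2L2 (0.19, adjusted p = 0.275), BCL2 (0.53, adjusted p = 0.464), BOK (0.13, adjusted p = 0.347) and BAX (−0.11, adjusted p = 0.652) were not called at the high dose.

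At the high dose the other IAP genes held the largest changes among called genes of the list, in opposite directions. BIRC3 (cIAP2), an NF-kB target that acts in TNF receptor signalling, was at 5.01, 5.06 and 4.92 CPM in vehicle, 8.24, 6.13 and 6.58 CPM at the low dose, 10.1, 10.9 and 10.1 CPM at the medium dose, and 9.68, 10.9 and 11.3 CPM at the high dose. All treated libraries lay above vehicle. BIRC3 rose at the medium dose (log2 fold change 1.05, SE 0.12, adjusted p = 0.000715) and the high dose (1.09, SE 0.12, adjusted p = 0.000171), and the low-dose value of 0.48 was not called (adjusted p = 0.198).

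NAIP, which senses bacterial flagellin and carries IAP domains, was at 5.06, 5.49 and 5.18 CPM in vehicle, 2.95, 3.31 and 3.27 CPM at the low dose, 2.43, 3.17 and 2.21 CPM at the medium dose, and 2.61, 3.47 and 1.88 CPM at the high dose. All treated libraries lay below vehicle. It fell at the medium dose (−1.001, SE 0.19, adjusted p = 0.0259) and the high dose (−1.04, SE 0.19, adjusted p = 0.00764). The medium-dose call held in 11 of 19 alternatives and in 4 of the 12 fits that left out 1 library, with log2 fold changes of −1.17 to −0.89. The genome holds near-copies of NAIP, so how its reads were split is uncertain. Of the IAP antagonists, XAF1 (−1.06, SE 0.46, adjusted p = 0.225) and DIABLO (0.21, adjusted p = 0.441) were not called.

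**Figure D4:**
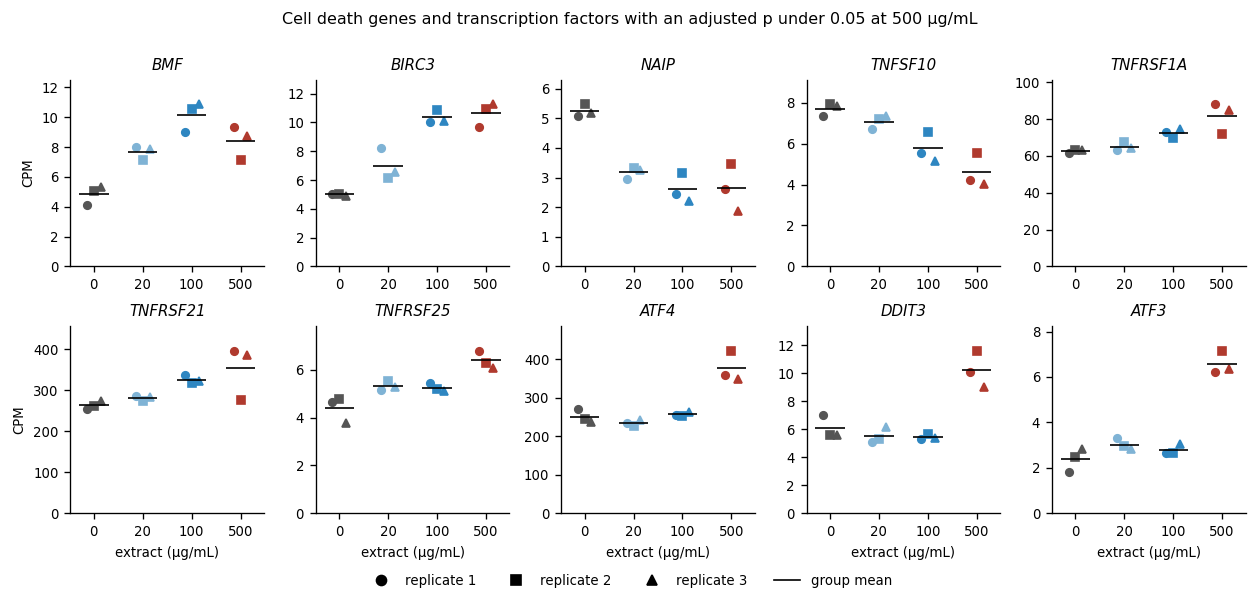
Level in CPM (vertical axis, linear, from 0) of the 7 other cell death genes and 3 transcription factors called at 500 µg/mL, in every library against the extract dose in µg/mL (horizontal axis, 0 is vehicle). Symbols stand for the replicate number and bars for the group mean. BMF and BIRC3 lie above vehicle in all treated libraries and NAIP below, whereas ATF4, DDIT3 and ATF3 stand out at 500 µg/mL.

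Of 11 transcription factors known to act on members of the set, 10 were tested and 3 were called at the high dose, all higher. At that dose 2.82% of all genes were called higher. This list too was chosen with earlier results of these data known. ATF4, which drives the integrated stress response, was at 271, 243 and 237 CPM in vehicle and 358, 421 and 349 CPM at the high dose (log2 fold change 0.59, SE 0.08, adjusted p = 0.00146). DDIT3 (CHOP) was at 6.99, 5.58 and 5.62 CPM in vehicle and 10.1, 11.6 and 9.01 CPM at the high dose (0.75, SE 0.13, adjusted p = 0.00372). ATF3 was at 1.82, 2.49 and 2.81 CPM in vehicle and 6.21, 7.15 and 6.36 CPM at the high dose (1.45, SE 0.15, adjusted p = 0.000106). In each of the 3, every high-dose library lay above every other library, as in PMAIP1, and the share of all genes that did so is not given here. None of the 3 was called at the low or medium dose.

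The pattern of PMAIP1 over the 12 libraries was most like those of ZNF639 (Pearson r of log2 CPM 0.961), MTHFD2 (0.944), a mitochondrial folate enzyme, and ZFAND2A (0.940). Without high-dose replicate 2 these values were 0.911, 0.861 and 0.829. ATF4 (0.887, and 0.779 without that library), DDIT3 (0.852 and 0.741) and ATF3 (0.818 and 0.747), looked up after their values were seen, came lower, and MCL1 showed −0.03. These are descriptions over libraries that share the group differences and high-dose replicate 2.

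In RefSeq's promoter table, entries of 6 of the 10 genes were searched over 250 bases before a start. TGACG, on either strand, was in 3 of 6 (PMAIP1, BCL2L1 and XIAP), and in 21.2% of 35115 promoters of all genes. For each motif, members are counted by gene over all their entries, whereas the share is of single entries. BID and XIAP had matches in several entries, so the counts and shares are not on the same scale. The windows of 29 bases around it are shown in the direction of transcription, with the match in capitals, since they set the member that was called beside those that were not. They lie at chr18:59899929-59899957 (plus strand), chr20:31724148-31724176 (minus strand) and chrX:123860015-123860043 (plus strand).

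PMAIP1: ctagtttccctaCGTCAccagggaagttc
BCL2L1: ctatatataaacTGACGgacggatgaaat
XIAP: gggctgggagacTGACGgaccgcgcccgg

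In the order shown, the match begins 55, 201 and 26 bases before the RefSeq start of the entry searched. For BCL2L1 and XIAP that is not the outer end of the gene in GENCODE, and the XIAP window lies inside the gene as GENCODE draws it. The match of PMAIP1 reads on the opposite strand. The full CRE TGACGTCA was in none of the 6 and in 1.65% of all promoters, and the C/EBP-ATF element TGATGCAA was in none and in 0.772%. Each CRE contains TGACG, so these searches overlap. GGGCGG was in 5 of 6, all but BCL2L1, and in 42.6% of promoters, and the E-box CACGTG was in BID and in 6.34%. BCL2L1 and XIAP, which also held TGACG, had log2 fold changes at the high dose of 0.07 and −0.30. Whether TGACG acts on any of these genes was not tested.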

How the data were processed

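Reads from 12 HT29 libraries were processed by the authors, who, per the submitters' processing notes, used FastQC 0.11.9, Trim Galore 0.6.5, STAR 2.7.3a and RSEM 1.3.3 with GRCh38. The deposited values are RSEM expected counts per Ensembl gene ID, not normalized. All 12 columns were matched to samples by the sample code in the description of each sample, and groups were taken from the titles. Libraries of another cell line and of another compound were not analysed here.

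Expected counts were rounded and tested in edgeR 4.0.16 under R 4.3.3 (quasi-likelihood F test; filterByExpr, TMM, robust fit, groups only, 8 residual degrees of freedom), with Benjamini–Hochberg adjustment over the 15374 genes tested in each comparison. Called means an adjusted p under 0.05. Standard errors came from the F statistic. A prior count of 2 was added for log2 CPM. The biological coefficient of variation was 11.2%. Counts per library of 15941255 to 33866644 set the precision, and ratios of counts were compared with exact permutation tests in scipy 1.17.1.

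Gene positions came from GENCODE 44, which holds 93.2% of the gene IDs, and all 91 listed genes matched by symbol. Promoters came from RefSeq (GRCh38.p14). No promoter entry was found for MCL1 and BIK, and the receptors were left out of the promoter search.

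All members were named, with other cell death genes called in any comparison with more than a 1.5-fold change, the 2 with the smallest p per role at the high dose, and the 3 genes most correlated with a called member. The members and lists were chosen with earlier results of these data known. On simulated counts for high dose against vehicle (15202 genes), edgeR called 86 of 100 genes changed 2-fold and 68 of 100 changed 1.5-fold, with 8 wrong calls. Alternatives were DESeq2 1.42.0, DESeq2's size factors in edgeR, 2 groups only, no filter, at least 10 counts in every library, a replicate block, limma 3.58.1 voom with quality weights, and each library left out in turn. No pair of libraries within a group was a duplicate (chi-square per degree of freedom 3.64 or more). Values of 2 listed genes are not reported here.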

Additional observations from a re-analysis of the deposited data

Results flagged for a closer look

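High and low dose were compared directly with edgeR, and in 7 of the genes named in the report the difference between doses itself passed the test (adjusted p under 0.05). Over all genes tested, 2.98% passed that test. PMAIP1 was higher at the high dose by 0.88 on the log2 scale (adjusted p = 0.0345), with all 3 high-dose libraries above all 3 low-dose libraries. BIRC3 was higher by 0.60 (adjusted p = 0.0113) and TNFRSF1A by 0.33 (adjusted p = 0.0392). TNFSF10 had a log2 difference of −0.65 (adjusted p = 0.0177), lower at the high dose. ATF4 was higher by 0.68 (adjusted p = 0.000693), ATF3 by 1.11 (adjusted p = 0.000809) and DDIT3 by 0.89 (adjusted p = 0.00169). The call of TNFRSF1A held in 5 of 19 alternatives and that of PMAIP1 in 9 of 19, while those of ATF4 and ATF3 held in all 19.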

How the results depend on the processing

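The fit over all libraries called 0, 0 and 1 of the 9 tested members at the low, medium and high dose and 1 for high against low dose. Of 684 values of members under alternatives, 633 kept their direction and side of the threshold. With 1 library left out these counts ranged from 0 to 0, 0 to 1, 0 to 3 and 0 to 1, and those of the other cell death genes (0, 3, 7 and 3) from 0 to 3, 2 to 8, 5 to 11 and 0 to 4. DESeq2 called 1 and 2 members at the medium and high dose. It called 1, 4 and 9 other genes at the low, medium and high dose and 5 for high against low dose. The fit of 2 groups only, with fewer degrees of freedom, called 0 members at the high dose and 0 for high against low dose, and 2, 5, 1 and 0 other genes at the low, medium and high dose and for high against low. Of the 7 others called at the high dose it kept BIRC3. Voom with quality weights called 1, 1 and 3 members at the low, medium and high dose, and 6, 11, 16 and 8 other genes in the 4 comparisons. Without the filter 1 other gene was called at the low dose, and with a minimum fold change of 1.5 there were 4 at the high dose. The cause of these shifts was otherwise not tested.

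Same-numbered libraries did not deviate together (median r −0.08, from −0.50 to 0.37), and 1 of 12 libraries was closest to its own number. Whether same-numbered libraries shared a culture or a preparation was not tested. With the replicate block, PMAIP1 gave 0.87 for high against low (adjusted p = 0.0653), so that 0 members were called there.

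Directions turned only in comparisons where the member was not called, in 27 values. Under quality weights these were BID (−0.083) and TNFRSF10A (0.061) at the high dose, BCL2L11 at the medium (−0.051) and low dose (−0.028), PMAIP1 at the low dose (8.80e-05) and TNFRSF10A for high against low (0.030). The others came from leaving out 1 library, which gave TNFRSF10A −0.013 to 0.14 (low dose), −0.041 to 0.12 (medium dose), −0.14 to 0.12 (high dose) and −0.22 to 0.047 for high against low. It gave TNFRSF10B −0.0012 to 0.065 (medium dose), −0.019 to 0.20 (high dose) and −0.063 to 0.16 for high against low, and PMAIP1 −0.083 to 0.059 (low dose) and −0.043 to 0.21 (medium dose). It gave BCL2L11 −0.066 to 0.10, −0.081 to 0.093 and −0.16 to 0.014 at the low, medium and high dose, BAK1 −0.019 to 0.081 and −0.0099 to 0.088 at the low and medium dose, and BID −0.14 to 0.27 at the high dose and −0.0041 to 0.41 for high against low. PMAIP1 at the high dose stayed between 0.62 and 1.05 in all 19 alternatives and was called in 14 of them. The low counts of PMAIP1 and the spread of high-dose replicate 2 limit how small a change could be called.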
